A study of Homo sapiens with 18 samples.

Results

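The response to 1 hairpin against AHR, named shAhR-2, was compared between 2 human neuroblastoma cell lines, BE2C and Kelly. For each gene, the change from vector control to shAhR-2 in BE2C was set against the same change in Kelly, and the difference between the changes was tested as a line by hairpin interaction. The comparison used 12 of the 18 libraries of the series, in 4 groups of 3: BE2C with the pLKO-GFP control vector, BE2C with shAhR-2, Kelly with pLKO-GFP and Kelly with shAhR-2. All 39368 genes listed for both lines were joined by symbol, and 16745 of them had enough counts to be tested. Both lines are established and MYCN-amplified according to the series title, and each line is a single genetic background. No label tells if a group's 3 libraries were grown as separate cultures. Each p-value is therefore set by how far these libraries scatter, and that scatter may be technical. The libraries of a second hairpin were left out, so a value below belongs to shAhR-2 and may or may not hold for AHR knockdown by other means.

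AHR encodes the aryl hydrocarbon receptor, a transcription factor that waits in the cytoplasm in a complex with HSP90 and other chaperones. On binding a ligand it moves to the nucleus, pairs with ARNT and binds DNA at xenobiotic response elements, where it turns on detoxification genes such as CYP1A1 and CYP1B1 and its own repressor AHRR. Neuroblastoma arises from the sympathetic nerve lineage. Its cells can hold an adrenergic state, marked by HAND2 and enzymes of noradrenaline synthesis, or a mesenchymal state, marked by matrix and motility genes, and MYCN drives growth and ribosome production in both.

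Each library held 38452042 to 45469353 counts. Levels are given as CPM (counts scaled to a common library size, by TMM) and changes as log2 fold changes ± SE. The first BE2C shAhR-2 library stood apart from the other 2 of its group by chi-square, though hardly by log2 distance. Between it and each of them the chi-square per degree of freedom over genes was 20.9 and 22.8, against 2.81 to 6.59 for every other pair within a group. Its root mean square log2 distance from the mean of its group mates was 0.375. That distance was 0.363 for each of the other 2 and 0.433 to 0.436 for the BE2C controls. Mitochondrial genes took 25.1% of the counts of this first library, against 20.5% in each of the other 2, 18.8% to 19.4% in the BE2C controls and 14.5% to 15.8% in Kelly. All 9 adrenergic neuroblastoma markers, among them PHOX2A, HAND2, GATA3, TH, DBH, CHGA, STMN2 and ISL1, were above 1 CPM on average in each of the 4 groups. Of 12 leukocyte markers, none reached a mean of 1 CPM in any group.

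AHR (chromosome 7, 16916359–17346152, plus strand, GRCh38) was barely detected in either line, so it was not among the genes tested. The BE2C control libraries held 4, 4 and 6 AHR counts and the BE2C shAhR-2 libraries held 0, 0 and 0. The Kelly control libraries held 4, 26 and 29 counts, and the Kelly shAhR-2 libraries held 0, 4 and 0. In BE2C the groups did not overlap, while in Kelly the lowest control equalled the highest shAhR-2 library. The pooled count ratio of shAhR-2 to control was 0 in BE2C, with an exact 95% interval that reaches up to 0.293, or up to 0.675 when all counts are halved. In Kelly the ratio was 0.0660, with an interval of 0.0174 to 0.178. These intervals overlap, cover counting error only, and do not show whether the hairpin lowered AHR to a different degree in the lines. The exact 2-sided permutation p was 0.1 in BE2C and 0.2 in Kelly, and 0.1 is the smallest that 3 libraries against 3 can give. Of the exonic bases of AHR, 29.4% overlap the gene AC019117.2 on the same strand.

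Genes that the receptor is known to switch on differed between the lines at a share near that of all genes tested. Of 15 listed AhR targets 8 had enough counts to be tested and 4 of these reached 1 CPM in both lines. CYP1B1, which oxidizes hormones and pollutants, was low in BE2C and ran in opposite directions: its CPM was 0.125, 0.243 and 0.354 in the BE2C controls and 0.418, 0.531 and 0.513 with shAhR-2, and 3.51, 3.89 and 3.48 in the Kelly controls and 1.098, 0.879 and 1.32 with shAhR-2. Its groups did not overlap in either line. The change was 1.01 ± 0.39 in BE2C and −1.72 ± 0.25 in Kelly, with a difference of 2.73 ± 0.46 (edgeR quasi-likelihood test, adjusted p = 4.34e-06). NQO1, a quinone reductase, fell only in Kelly among the tests made. NQO1 had a CPM of 9.55, 11.1 and 10.1 in the Kelly controls and 3.196, 4.05 and 3.32 with shAhR-2, against 11.6, 10.6 and 11.9 and 14.5, 13.2 and 11.2 in BE2C. The Kelly groups were far apart and the BE2C groups overlapped, and the difference between the lines was 1.72 ± 0.16 (adjusted p = 1.05e-11). SLC7A5, an amino acid transporter, fell in both lines and further in BE2C (−1.83 ± 0.043 against −0.84 ± 0.041). NFE2L2, a regulator of antioxidant genes, rose by 0.19 ± 0.045 in BE2C and changed by −0.16 ± 0.047 in Kelly, both past the test. TIPARP, the PARP family repressor of the receptor, did not pass any test, with changes of −0.02 ± 0.092 and −0.03 ± 0.078 and a difference of 0.01 ± 0.12. CYP1A1 and AHRR had a mean below 1 CPM in every group and did not pass a test.

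Of the partners of the receptor, 11 of 12 listed genes were tested, with 3 differences positive (27.3%) and 3 negative (27.3%), close to the 29.3% and 26.3% of all genes tested. The 3 and 3 became 5 and 3 without mitochondrial genes in the library sizes, 2 and 5 with no filter on low counts and 2 and 4 with a mean of at least 1 CPM required. A positive difference means that the change in BE2C lay above the change in Kelly. ARNT, the partner of the active receptor, fell a little in both lines (−0.33 ± 0.043 and −0.23 ± 0.041). ARNT2, its neural paralog, was at 67.6, 64.7 and 69.5 CPM in the Kelly controls and 28.3, 28.8 and 26.6 with shAhR-2, and at 6.01, 6.18 and 5.89 and 5.74, 5.15 and 6.07 in BE2C. It fell in Kelly (−1.27 ± 0.060, adjusted p = 1.70e-20), while in BE2C the groups overlapped, and the difference was 1.18 ± 0.11. The chaperone HSP90AA1 fell alike in both lines (−0.97 ± 0.027 and −0.96 ± 0.027, difference −0.09 to 0.06 as a 95% interval). SRC, a kinase that the cytoplasmic receptor complex holds, went from 38.5, 37.1 and 32.7 to 117, 120.2 and 111 CPM in BE2C and from 84.1, 81.98 and 81.2 to 53.6, 57.6 and 51.1 in Kelly. Its difference was 2.29 ± 0.070 (adjusted p = 5.32e-25), a rise in 1 line and a fall in the other without overlap in either.

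The xenobiotic response element has the core letters GCGTG. Promoter sequences from RefSeq (GRCh38.p14, 250 bases before to 50 after the gene start) matched 6 of the 8 AhR targets tested and 12334 of the 16745 genes. All 6 hold the core on either strand, and so do 49.4% of the matched genes tested and 36.3% of all promoters in the table, so the core is common. NQO1 is shown because the lines parted at it, with its only match in capitals, read here as CACGC, the core on the opposite strand. The stretch is 120 bases of the gene's own strand (minus) at chr16:69726531-69726650.
NQO1: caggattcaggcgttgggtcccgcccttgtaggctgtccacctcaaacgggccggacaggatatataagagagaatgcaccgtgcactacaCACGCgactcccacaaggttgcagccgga

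Most genes tested responded to shAhR-2 in each line. In BE2C 6211 genes rose (37.1% of those tested) and 5967 fell (35.6%), and in Kelly 5982 rose (35.7%) and 5858 fell (35%). The median change over all genes was 0.04 in BE2C and 0.01 in Kelly. Both lines rose at 3918 genes (23.4%) and both fell at 4120 (24.6%), and at 1318 (7.87%) and 875 (5.23%) of these the change was at least 2-fold in each line. Across the 12412 genes that reached a mean of 1 CPM in both lines, the changes correlated with a Pearson r of 0.674 and a Spearman coefficient of 0.688. This correlation is across genes, which are not independent replicates, and the lines share no library.

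The difference between the lines passed the test at 9305 genes (55.6%). It was positive at 4901 (29.3%) and negative at 4404 (26.3%), with a median of 0.05 over all genes. That order turned to 4267 positive and 4992 negative with no filter on low counts, and to 4184 and 4717 when a mean of 1 CPM was required. Differences of at least 2-fold were positive at 1985 genes (11.9%) and negative at 753 (4.5%), and the positive ones were more numerous in those fits too (1847 against 934 and 1498 against 693). Among genes at 1 CPM or more in both lines the same counts were 1351 and 516. Genes called in both lines in opposite directions numbered 706 with a rise in BE2C (4.22%) and 854 with a fall in BE2C (5.1%), an order that turned to 866 and 638 without mitochondrial genes in the library sizes. Of the 706 and 854, 94 and 16 moved at least 2-fold in both lines. Genes called in BE2C, not called in Kelly and called for the difference numbered 966 risers (5.77%) and 696 fallers (4.16%). The reverse held for 687 risers (4.1%) and 641 fallers (3.83%) in Kelly. A similar change, with the same sign and a 95% interval of the difference inside 1.5-fold either way, was found for 1516 risers (9.05%) and 2499 fallers (14.9%). Genes said to move alike or to a similar degree meet this limit, and their small difference may still have passed the test. Without the first BE2C shAhR-2 library, 8850 of the 9305 differences (95.1%) and 1456 of the 1560 opposite responses kept their call and sign.

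**Figure D1:**
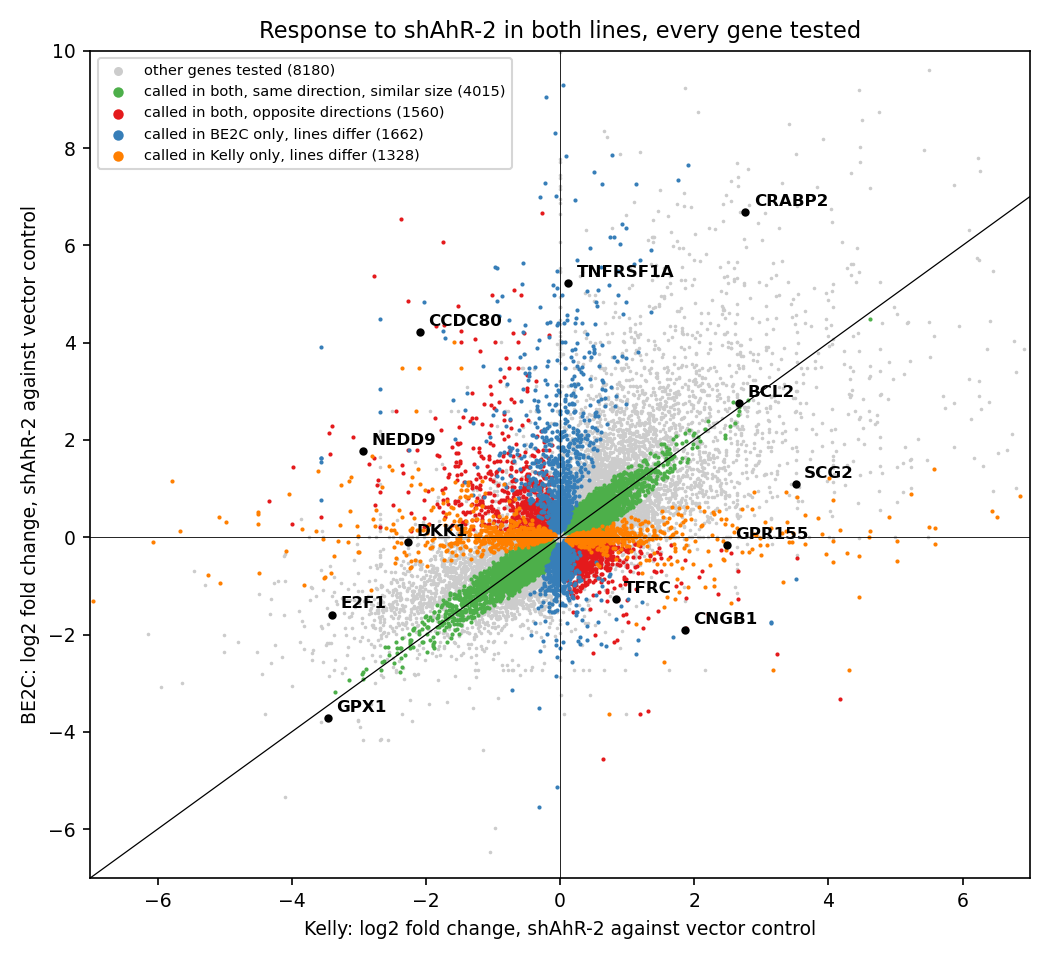
Change with shAhR-2 in BE2C (vertical axis, log2) against the change in Kelly (horizontal axis, log2) for 16734 of the 16745 genes tested, 11 lying outside the axes. Colours mark 4015 genes with a similar change, 1560 with opposite changes, 1662 called in BE2C and 1328 called in Kelly alone with a tested difference. The diagonal marks equal change, and most genes spread along it while the blue and orange bands follow the axes.

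Part of the difference lay in genes that 1 line barely expressed. By the limit of 1 CPM, 838 genes were expressed in BE2C and not in Kelly and 1071 in Kelly and not in BE2C. In BE2C 490 genes rose and 134 fell that stayed below the limit in Kelly, and in Kelly 445 rose and 264 fell that stayed below it in BE2C. The genes named below were taken from those expressed in both lines, with a mean of at least 5 CPM over the 12 libraries and the largest differences, or the largest changes in the case of shared responses, in each class. They also needed groups that did not overlap in each line where a call was needed, so that separation was fixed by the choice.

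The shared responses of similar size were led by BCL2, an inhibitor of cell death (chromosome 18, 63123346–63320128, minus strand). BCL2 had a CPM of 36.3, 32.96 and 34.6 in the BE2C controls and 219, 237 and 244 with shAhR-2, and of 21.98, 22.8 and 20.3 and 137, 143 and 134 in Kelly. Every shAhR-2 library lay far above every control of its line. The rise was 2.75 ± 0.046 in BE2C and 2.67 ± 0.048 in Kelly, and the interval of the difference was −0.05 to 0.22. BAMBI, a decoy receptor of TGF-beta signalling, rose by 2.5997 ± 0.052 and 2.67 ± 0.074, with an interval of −0.26 to 0.12. SFRP1, a secreted Wnt antagonist, rose by 2.11 ± 0.031 and 2.46 ± 0.033. TLE2, a Groucho family corepressor, rose by 2.35 ± 0.071 and 2.61 ± 0.076, and the potassium channel KCNH3 by 2.38 ± 0.10 and 2.21 ± 0.077. TTLL3, a tubulin glycine ligase, rose by 2.28 ± 0.082 and 2.54 ± 0.080, and 21.4% of its exonic bases overlap the readthrough gene ARPC4-TTLL3.

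The fallers of similar size were led by GPX1, which detoxifies hydrogen peroxide (chromosome 3, 49357171–49358600, minus strand). GPX1 had a CPM of 52.9, 49.4 and 52.5 in the BE2C controls and 4.53, 3.76 and 3.44 with shAhR-2, and of 67.3, 67.8 and 67.5 and 5.905, 6.62 and 5.86 in Kelly. The libraries of the groups were far apart in both lines. The fall was −3.72 ± 0.076 in BE2C and −3.46 ± 0.071 in Kelly, with an interval of the difference of −0.49 to −0.04. UNG, which removes uracil from DNA, had a CPM of 152, 159.9 and 157 and then 21.01, 20.6 and 19.3 in BE2C, and of 139, 136 and 140.2 and then 15.01, 17.1 and 14.9 in Kelly. Its change was −2.94 ± 0.047 and −3.14 ± 0.049, again without overlap. EPN1, an endocytic adaptor, changed by −3.18 ± 0.058 and −3.36 ± 0.058. ALYREF, an mRNA export factor, changed by −2.81 ± 0.056 and −2.96 ± 0.060, and VSTM2L by −2.76 ± 0.13 and −2.94 ± 0.070. ARHGAP19, a GTPase-activating protein, changed by −2.92 ± 0.082 and −2.94 ± 0.089, with 24.1% of its exonic bases inside the readthrough gene ARHGAP19-SLIT1.

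Among genes that rose in BE2C and fell in Kelly, CCDC80 had the largest difference of those in the naming rule (chromosome 3, 112596794–112649530, minus strand). It encodes a secreted matrix protein. CCDC80 was at 3.54, 5.18 and 3.95 CPM in the BE2C controls and 80.2, 78.8 and 77.5 with shAhR-2, while in Kelly it was at 26.1, 22.3 and 22.9 in the controls and 5.47, 4.46 and 6.81 with shAhR-2. All 3 libraries moved up in BE2C and all 3 moved down in Kelly, with no overlap. The change was 4.22 ± 0.10 in BE2C and −2.09 ± 0.10 in Kelly, a difference of 6.305 ± 0.14 (edgeR quasi-likelihood test, adjusted p = 4.65e-29). NEDD9, a scaffold of focal adhesion signalling (chromosome 6, 11183298–11382348, minus strand), was at 2.84, 3.14 and 2.71 CPM and then 9.47, 10.1 and 10.2 in BE2C, and at 9.08, 14.02 and 10.02 and then 2.07, 0.972 and 1.29 in Kelly. Its groups did not overlap, and the difference was 4.72 ± 0.24 (adjusted p = 1.17e-18). COL1A1, a chain of type I collagen, went up by 4.197 ± 0.12 in BE2C and changed by −0.54 ± 0.10 in Kelly. MDFI, an inhibitor of myogenic factors, had changes of 3.69 ± 0.21 and −0.81 ± 0.11, and SLITRK6, a neurite membrane protein, of 3.12 ± 0.10 and −1.05 ± 0.23. The mean of MDFI in the BE2C controls was 0.396 CPM, and SLITRK6 in Kelly was at 1.04 and then 0.504 CPM. TNS3, a focal adhesion protein, rose by 4.17 ± 0.12 in BE2C from a control mean of 0.895 ± 0.305 CPM (SD, n = 3), and its fall in Kelly was small (−0.17 ± 0.062).

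Genes with a fall in BE2C and a rise in Kelly were led by CNGB1, a subunit of the cyclic nucleotide-gated channel (chromosome 16, 57882340–57971116, minus strand). CNGB1 was at 15.5, 18.4 and 17.6 CPM in the BE2C controls and 5.06, 4.11 and 4.58 with shAhR-2, and at 26.4, 28.8 and 27.1 and 98.99, 101 and 97.9 in Kelly. The libraries separated fully in both lines, in opposite directions. The change was −1.91 ± 0.081 in BE2C and 1.86 ± 0.058 in Kelly, a difference of −3.76 ± 0.10 (adjusted p = 5.34e-27). SEMA3D, a secreted axon repellent (chromosome 7, 84995553–85186855, minus strand), was at 11.02, 13.1 and 12.3 CPM and then 5.81, 6.06 and 7.101 in BE2C, and at 7.83, 7.88 and 6.81 and then 25.9, 27.2 and 25.8 in Kelly. It did not overlap in either line, and the difference was −2.75 ± 0.13 (adjusted p = 2.83e-19). SLIT1, another axon repellent, changed by −1.66 ± 0.16 and 1.31 ± 0.067. HSD11B2, which inactivates cortisol, changed by −1.75 ± 0.15 and 1.01 ± 0.10. GCAT, a mitochondrial enzyme of threonine breakdown, changed by −1.9999 ± 0.12 and 0.52 ± 0.11, and TPBGL by −1.57 ± 0.089 and 0.98 ± 0.10.

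**Figure D2:**
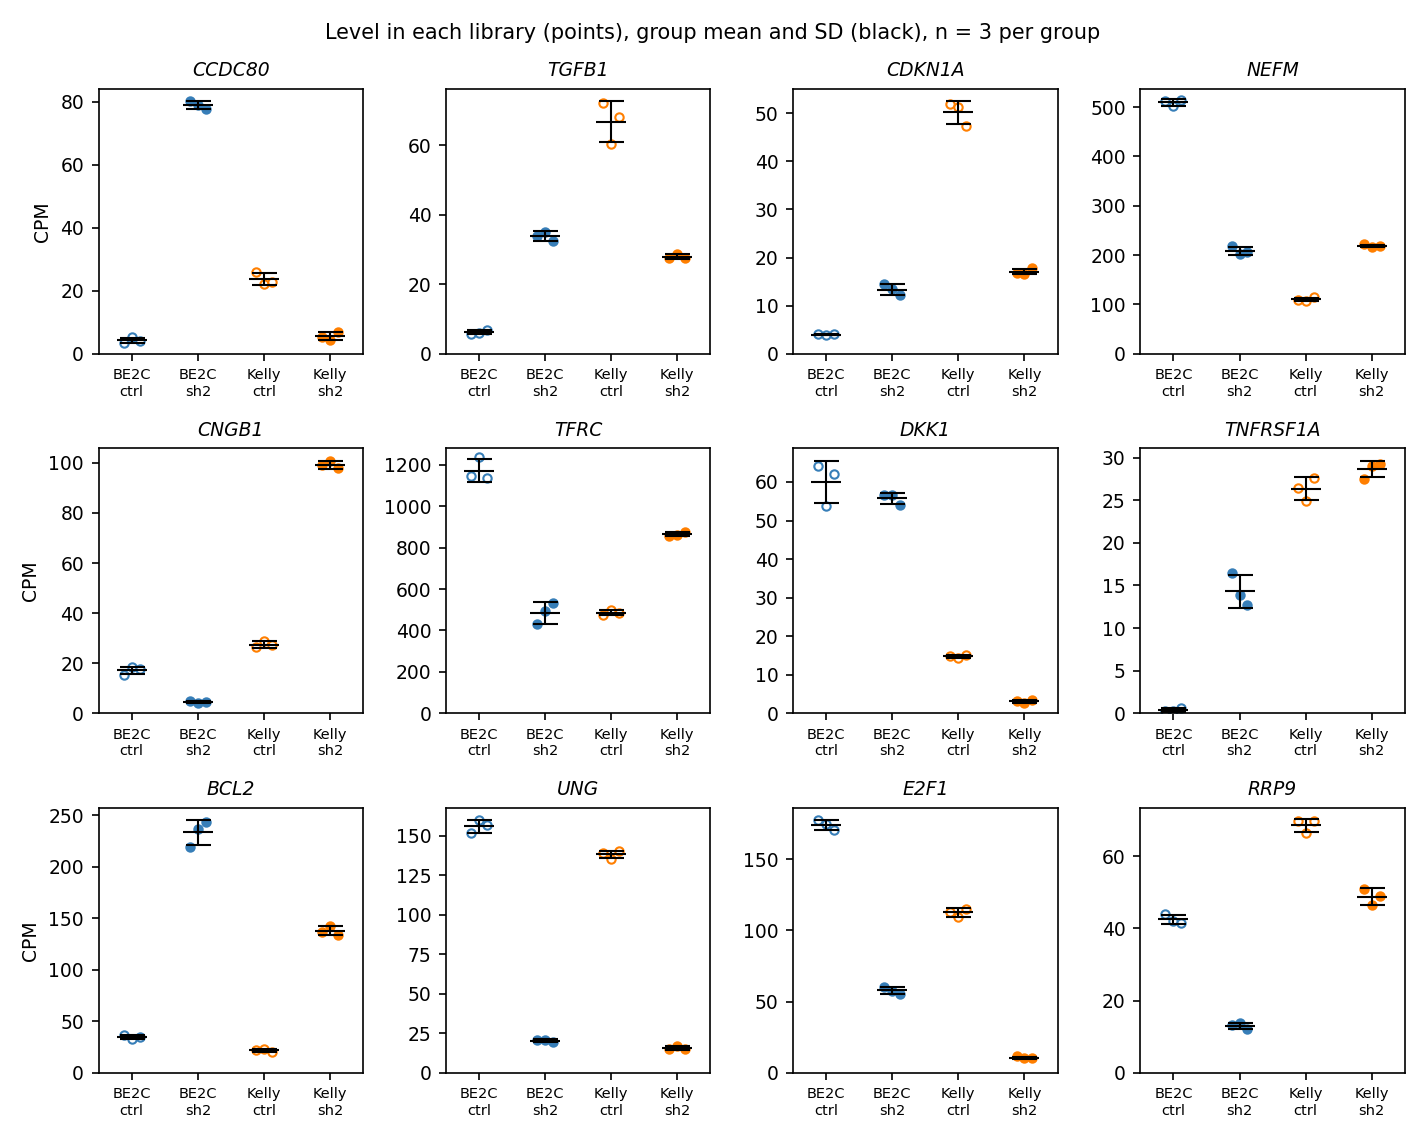
Level of 12 genes in each library, in CPM on axes that start at 0, with open points for controls, filled points for shAhR-2, and black bars for the mean and SD of 3 libraries. CCDC80, TGFB1 and CDKN1A moved up in BE2C and down in Kelly, NEFM, CNGB1 and TFRC did the reverse, DKK1 fell in Kelly, TNFRSF1A rose in BE2C, and BCL2, UNG, E2F1 and RRP9 moved the same way in both lines.

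In BE2C alone, by the tests made, SALL1, a zinc finger repressor of developmental genes, and the TNF receptor TNFRSF1A rose from near 0. SALL1 had no count in any BE2C control and 210 counts over the 3 shAhR-2 libraries, which is at least 62.6-fold higher with a floor of 3 counts over the group. Its Kelly libraries were at 19.8, 17.5 and 20.5 CPM in the controls and 16.3, 17.5 and 15.996 with shAhR-2. These groups did not overlap, and the Kelly change of −0.22 ± 0.10 narrowly missed the call (edgeR quasi-likelihood test, adjusted p = 0.055). TNFRSF1A was at 0.249, 0.243 and 0.658 CPM in the BE2C controls and 16.5, 13.8 and 12.7 with shAhR-2, against 26.5, 24.96 and 27.6 and 27.5, 29.1 and 29.3 in Kelly. The BE2C groups were far apart and the Kelly groups overlapped at their edges. The difference was 5.0999 ± 0.20 (adjusted p = 1.12e-21). REST, the repressor of neuronal genes in non-neuronal cells, was at 2.12, 1.85 and 2.07 CPM and then 25.6, 23.6 and 25.4 in BE2C, and at 6.46, 4.97 and 4.78 and then 4.71, 4.83 and 4.87 in Kelly. REST rose by 3.62 ± 0.12 in BE2C and its Kelly groups overlapped. PDLIM3, an actin-associated protein, rose by 3.502 ± 0.12 in BE2C, and COL3A1, the chain of type III collagen, by 3.31 ± 0.093. Their Kelly values were 0.32 ± 0.16 and 0.21 ± 0.18. Both were low in Kelly, with means of 1.86 and then 2.31 CPM for PDLIM3 and 0.977 and then 1.13 CPM for COL3A1. SAMD14 rose by 4.11 ± 0.20 in BE2C from a control mean of 0.271 CPM, and 30.1% of its exonic bases overlap PDK2 on the opposite strand. Its Kelly groups did not overlap, and the change of −0.17 ± 0.081 there narrowly missed the call (edgeR quasi-likelihood test, adjusted p = 0.061).

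The fallers in BE2C alone included DRGX, a homeobox factor of sensory neurons, at 8.28, 6.52 and 7.66 CPM in the controls and 1.602, 1.15 and 1.86 with shAhR-2. In Kelly DRGX was at 5.67, 6.73 and 6.07 and 6.05, 6.78 and 5.67, which overlap, and the difference was −2.28 ± 0.21 (adjusted p = 1.09e-11). The glycine transporter SLC6A9 fell by 2.13 on the log2 scale in BE2C (Kelly −0.26 ± 0.12), and the NMDA receptor subunit GRIN3A fell by 1.72 (Kelly −0.22 ± 0.23). The Kelly groups of SLC6A9 did not overlap, though the change there was not called. GRIN3A was low in Kelly, with a mean of 1.09 CPM in the controls and 0.926 with shAhR-2. RAB33A, a vesicle trafficking GTPase, had a change of −1.398 ± 0.11 in BE2C and 0.08 ± 0.094 in Kelly. NME3, a nucleoside diphosphate kinase, changed by −1.252 ± 0.13 and had a Kelly value of 0.195 ± 0.11. DDIT4, an inhibitor of mTORC1 induced by stress, changed by −1.53 ± 0.085 against −0.09 ± 0.070, and 41.2% of its exonic bases overlap DDIT4-AS1 on the opposite strand.

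In Kelly alone, by the tests made, the fallers included DKK1, a Wnt antagonist (chromosome 10, 52314296–52318042, plus strand). It was at 14.8, 14.2 and 15.2 CPM and then 3.15, 2.68 and 3.34 in Kelly, and at 64.1, 53.7 and 62.2 and then 56.7, 56.5 and 54.2 in BE2C, where the groups overlapped. The change in Kelly was −2.27 ± 0.092, and the difference between the lines was 2.16 ± 0.11 (adjusted p = 1.32e-18). ROR1, a Wnt receptor kinase, changed by −2.05 ± 0.10 in Kelly and 0.15 ± 0.089 in BE2C. AKR1C3, a steroid-reducing enzyme, changed by −2.37 ± 0.31 in Kelly and −0.13 ± 0.11 in BE2C. Its mean in Kelly was low, 1.14 CPM in the controls and 0.219 with shAhR-2, against 18.2 and 16.7 in BE2C. The zinc finger genes ZNF738 and ZNF730 changed by −2.13 ± 0.078 and −2.29 ± 0.14 in Kelly, and they belong to a family with near-identical copies between which reads can be split.

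The risers in Kelly alone were led by GPR155, a lysosomal cholesterol sensor, at 5.18, 5.95 and 6.69 CPM in the controls and 32.7, 35.1 and 31.8 with shAhR-2. In BE2C GPR155 was at 19.3, 21.3 and 20.7 and 18.6, 17.2 and 18.9, and the difference was −2.65 ± 0.11 (adjusted p = 9.24e-21). Its BE2C groups did not overlap, and the change of −0.16 ± 0.076 there narrowly missed the call (edgeR quasi-likelihood test, adjusted p = 0.054). ESRRA, a nuclear receptor of mitochondrial energy genes, was at 25.1, 23.4 and 24.2 CPM and then 91.5, 89.96 and 86.1 in Kelly, and at 20.7, 18.9 and 18.4 and then 16.1, 19.6 and 20.5 in BE2C. ESRRA rose in all 3 Kelly libraries and its BE2C groups overlapped. LGALS3BP, a secreted glycoprotein, rose by 2.26 ± 0.046 in Kelly and had a BE2C value of 0.05 ± 0.037. The corresponding values were 2.34 ± 0.20 and −0.03 ± 0.059 for CPNE7, 2.01 ± 0.14 and −0.07 ± 0.21 for PDZD7, and 1.64 ± 0.071 and 0.01 ± 0.065 for ATXN1, a transcriptional regulator mutated in spinocerebellar ataxia. CPNE7 was low in Kelly, with a mean of 0.425 and then 2.19 CPM, against 66.0 and 64.7 in BE2C. PDZD7 was low in BE2C, with a mean of 1.44 and then 1.38 CPM.

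Lists of genes that share a pathway or a role are described next, by counts of tested members and beside the shares over all genes. A difference was positive at 29.3% and negative at 26.3% of all genes tested. The counts and medians describe the members and are not tests of a list, and a member may have been tested because it is high in 1 line only.

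Cell cycle genes fell in both lines and fell further in Kelly. Of the 39 listed, all were tested and all were expressed in both lines, and 38 fell in BE2C and 38 in Kelly. The difference was positive at 35 and negative at 1. The median change was −1.32 in BE2C and −2.24 in Kelly. E2F1, the transcription factor that opens S phase (chromosome 20, 33675683–33686404, minus strand), was at 177, 174 and 170.3 CPM in the BE2C controls and 60.6, 57.2 and 55.6 with shAhR-2, and at 113, 109.6 and 115 and 11.5, 10.04 and 10.4 in Kelly. No library overlapped between the groups of a line, and the remaining level in Kelly was the lower. E2F1 changed by −1.59 ± 0.041 in BE2C and −3.404 ± 0.051 in Kelly, with a difference of 1.81 ± 0.066 (adjusted p = 6.54e-23). MCM5, a subunit of the replicative helicase, changed by −1.37 ± 0.043 and −3.33 ± 0.047, with a difference of 1.96 ± 0.063. The proliferation marker MKI67 fell to a similar degree, by 2.15 on the log2 scale in BE2C and by 2.45 in Kelly, and so did the mitotic motor CENPE (−2.27 ± 0.039 and −2.37 ± 0.040). CCND1, the cyclin of G1, was the 1 member that rose in both lines (0.18 ± 0.032 and 0.35 ± 0.033).

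Genes that MYC proteins are known to drive did the reverse, with the larger fall in BE2C. All 33 listed were tested and expressed in both lines, 31 fell in BE2C and 20 fell in Kelly, while 2 rose in BE2C and 8 in Kelly. The difference was negative at 30 and positive at 1, and the median change was −0.82 in BE2C and −0.16 in Kelly. MYCN itself (chromosome 2, 15940564–15947007, plus strand) was at 2289, 2221 and 2277 CPM in the BE2C controls and 1166, 1162 and 1137 with shAhR-2, and at 4822, 4429.8 and 4794 and 3041, 3107 and 3061 in Kelly. It was lower in every shAhR-2 library. MYCN changed by −0.97 ± 0.028 in BE2C and −0.61 ± 0.028 in Kelly, with an interval of the difference of −0.44 to −0.28, inside 1.5-fold. RRP9, a component of the box C/D particle that processes ribosomal RNA, was at 43.9, 42.04 and 41.4 CPM and then 13.3, 13.7 and 12.1 in BE2C, and at 69.7, 66.4 and 69.6 and then 50.9, 46.4 and 48.9 in Kelly. It changed by −1.704 ± 0.059 and −0.49 ± 0.051, and the difference was −1.21 ± 0.078 (adjusted p = 6.93e-16). TFRC, the transferrin receptor that brings in iron, was at 1144, 1239 and 1136 CPM and then 429, 496 and 535 in BE2C, and at 476, 499.6 and 485 and then 858, 862 and 876 in Kelly. It fell in all 3 BE2C libraries and rose in all 3 Kelly libraries, with a difference of −2.099 ± 0.061 (adjusted p = 1.10e-25). The 5 other members with a fall in BE2C and a rise in Kelly were NPM1, ODC1, HSPD1, APEX1 and MYBBP1A, named after their values were seen. Their rises in Kelly were small, from 0.099 to 0.21. LDHA and NME1 fell alike in both lines (−1.78 ± 0.072 and −1.51 ± 0.043, −1.71 ± 0.048 and −1.49 ± 0.046), and reads of NME1 may be split with NME1-NME2.

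The promoters of the genes that fell further in 1 line were searched for the letters of a motif known for each group. The E-box CACGTG that MYC proteins bind stood, on either strand, in 9.89% of the matched promoters of all genes tested. It stood in 20.6% of 451 matched promoters of genes with the larger fall in BE2C and in 7.0% of 614 with the larger fall in Kelly. Across the other response classes the E-box share ran from 5.99% (rise in BE2C, fall in Kelly) to 14.6% (the reverse). It was 13.1% with a fall in BE2C alone and 12.8% with a rise in Kelly alone. Among the MYC targets 12 of 27 held it. The E2F letters TTTGGCGC or TTTCGCGC, on either strand, stood in 1.88% of all genes tested, in 2.44% with the larger fall in BE2C and in 5.86% with the larger fall in Kelly. Among the cell cycle genes 9 of 31 held them. Across the other response classes the E2F share ran from 0.0% to 3.53%, the latter with a fall in Kelly alone. The core GCGTG stood in 58.8% of promoters with the larger fall in BE2C and 49.7% with the larger fall in Kelly. Its share over all genes tested was 49.4%. None of the motif words contains another, the shares were not tested, and a match is a description of the letters only. A pair of promoters is shown for each motif, with the match in capitals, chosen from genes of the 2 lists whose fall was larger in Kelly (E2F1 and CDC6) or in BE2C (RRP9 and SRM). CDC6 loads the helicase onto DNA and SRM makes spermidine, and both were picked after their values were seen. CDC6 changed by −1.29 in BE2C and −3.07 in Kelly, and SRM by −1.28 and −0.34. Each stretch is 120 bases of the gene's own strand from RefSeq (GRCh38.p14): chr20:33686356-33686475 (minus), chr17:40287789-40287908 (plus), chr3:51941875-51941994 (minus) and chr1:11060149-11060268 (minus).
E2F1: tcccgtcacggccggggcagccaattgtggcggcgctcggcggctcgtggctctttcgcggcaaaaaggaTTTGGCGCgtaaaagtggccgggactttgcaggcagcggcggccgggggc
CDC6: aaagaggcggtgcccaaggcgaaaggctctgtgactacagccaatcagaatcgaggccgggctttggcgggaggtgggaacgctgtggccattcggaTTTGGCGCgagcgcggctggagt
RRP9: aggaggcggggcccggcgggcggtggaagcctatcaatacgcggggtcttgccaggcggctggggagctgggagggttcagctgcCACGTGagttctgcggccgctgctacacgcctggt
SRM: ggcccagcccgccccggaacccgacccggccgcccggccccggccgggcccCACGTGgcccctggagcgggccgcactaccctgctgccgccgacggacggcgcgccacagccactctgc

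Histone genes that are made in S phase did not follow the cell cycle genes. Of 41 listed, 29 were tested and 9 reached 1 CPM in both lines. The difference was negative at 22 of the 29 and positive at 0, with median changes of −0.55 in BE2C and 1.74 in Kelly. Over the 12 with a mean of at least 1 CPM the medians were 0.64 and 2.28. H2BC12 was at 8.13, 7.38 and 6.702 CPM in the BE2C controls and 9.89, 10.7 and 11.5 with shAhR-2, and at 7.21, 7.36 and 9.11 and 36.9, 32.7 and 30.4 in Kelly. The Kelly shAhR-2 libraries were the highest of the 12. H2BC12 rose by 0.53 ± 0.10 in BE2C and 2.08 ± 0.095 in Kelly (difference −1.55 ± 0.14, adjusted p = 6.28e-12), and H2BC5 by 1.04 ± 0.10 and 2.59 ± 0.094. H1-2, a linker histone, rose to a similar degree (0.76 ± 0.12 and 0.88 ± 0.11). These genes have near-identical copies, so counts of single members are uncertain. Most of their messages lack a poly(A) tail, and the library kit removed ribosomal RNA.

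**Figure D3:**
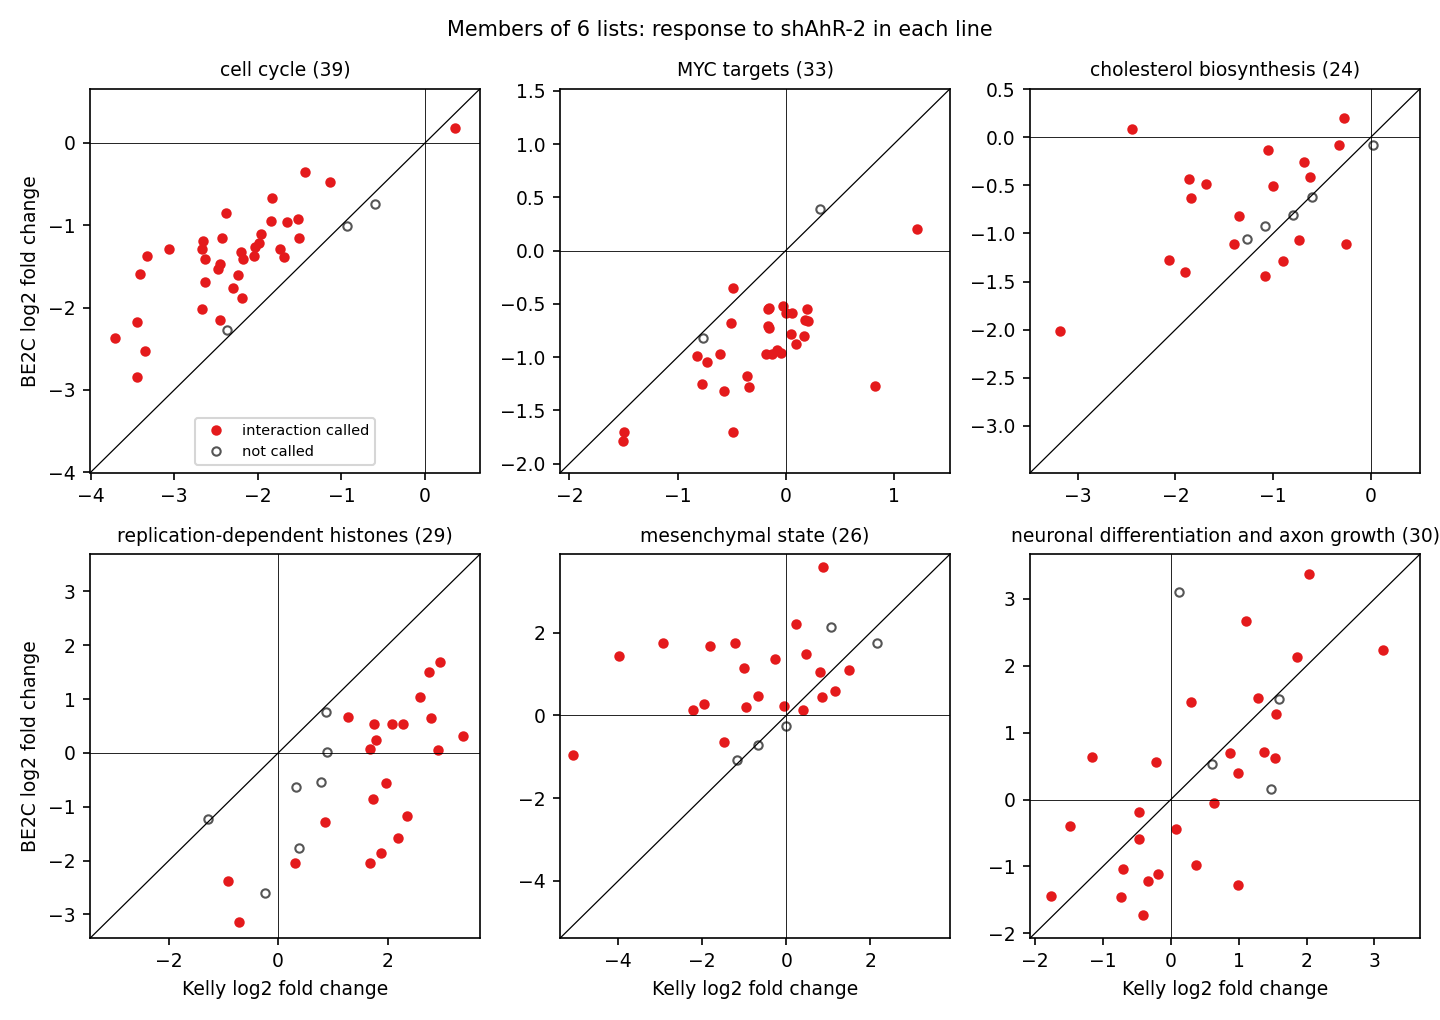
Change with shAhR-2 in BE2C (vertical axis, log2) against Kelly (horizontal axis, log2) for the tested members of 6 lists, with filled red points where the difference between the lines passed the test. Of 39 cell cycle genes 35 lie above the diagonal of equal change with a called difference, while 30 of 33 MYC targets and 22 of 29 histone genes lie below it.

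Cholesterol synthesis genes fell in both lines and further in Kelly at most members. Of 25 listed, 24 were tested, 20 fell in BE2C and 22 in Kelly, and none rose in either. The difference was positive at 15 and negative at 4, with medians of −0.72 and −1.07. HMGCS1, which makes HMG-CoA, was at 137, 135 and 143 CPM and then 104, 101 and 100.5 in BE2C, and at 192, 198 and 194 and then 55.1, 54.1 and 52.2 in Kelly. The Kelly fall was deeper, with a difference of 1.42 ± 0.050 (adjusted p = 3.44e-23). LSS, which closes the sterol rings, and FDPS, which makes farnesyl diphosphate, fell to a similar degree (−1.44 ± 0.061 and −1.09 ± 0.058, −1.11 ± 0.045 and −1.403 ± 0.047). PMVK, a mevalonate pathway kinase, fell further in BE2C (−1.11 ± 0.074 against −0.25 ± 0.071). In FDPS 18.6% of exonic bases overlap RUSC1-AS1 on the opposite strand.

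Stress response and glycolysis genes fell in both lines at many members without a common direction of difference. Of 29 genes that answer to amino acid shortage or to misfolded protein, 24 fell in BE2C and 21 in Kelly, with 8 differences positive and 11 negative. That order turned to 11 and 8 when mitochondrial genes were left out of the library sizes. SLC7A11, the cystine importer, was at 18.9, 19.96 and 18.9 CPM and then 2.55, 2.15 and 2.502 in BE2C, and at 17.6, 17.03 and 15.9 and then 0.342, 0.463 and 0.216 in Kelly. It was nearly lost in Kelly, and the difference was 2.63 ± 0.23 (adjusted p = 4.95e-12). PHGDH, the first enzyme of serine synthesis, fell alike (−2.26 ± 0.038 and −2.61 ± 0.040), as did CARS1, a cysteine tRNA ligase (−1.52 ± 0.065 and −1.601 ± 0.072). TRIB3 fell in BE2C and rose in Kelly (−0.397 ± 0.077 and 0.85 ± 0.077), and ATF3, an early stress factor, did the reverse (1.02 ± 0.10 and −0.28 ± 0.10).

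Of 33 hypoxia and glycolysis genes, 32 were tested, and the difference was positive at 9 and negative at 17. HK2, which commits glucose to glycolysis, was at 137, 142 and 132 CPM and then 42.7, 47.9 and 51.5 in BE2C, and at 99.6, 102 and 109 and then 118, 118 and 121 in Kelly. It fell in BE2C and rose slightly in Kelly, with a difference of −1.73 ± 0.065 (adjusted p = 1.60e-22). PKM and PGAM1, enzymes further down the pathway, fell alike in both lines (−1.696 ± 0.028 and −1.54 ± 0.028, −1.53 ± 0.038 and −1.61 ± 0.040). EGLN3, an oxygen-sensing hydroxylase, changed by −0.4995 ± 0.080 and 0.33 ± 0.10, and the lactate exporter SLC16A3 rose further in BE2C (1.99 ± 0.15 against 0.99 ± 0.093).

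Mesenchymal and matrix genes rose in BE2C, and in Kelly many of them fell or rose less. Of 30 mesenchymal-state genes, 26 were tested and 19 were expressed in both lines, and 21 rose in BE2C while 14 fell in Kelly. The difference was positive at 17 and negative at 4, and 10 members rose in BE2C and fell in Kelly. The median change was 0.82 in BE2C and −0.47 in Kelly. FN1, the matrix protein fibronectin (chromosome 2, 215360440–215436172, minus strand), was at 17.9, 17.9 and 16.5 CPM in the BE2C controls and 45.5, 58.9 and 62.3 with shAhR-2, and at 44.01, 44.7 and 42.7 and 12.7, 13.2 and 11.7 in Kelly. The order of the lines was turned around by the hairpin, and no groups of a line overlapped. The difference was 3.48 ± 0.11 (adjusted p = 1.86e-24). NOTCH3, a Notch receptor, changed by 1.76 ± 0.16 and −1.21 ± 0.087. Other markers of the state moved together: the filament protein VIM rose by 0.59 ± 0.040 and 1.16 ± 0.048 and the repressor ZEB2 by 1.05 ± 0.049 and 0.802 ± 0.053, and the galectin LGALS1 fell by 1.08 on the log2 scale in BE2C and by 1.16 in Kelly.

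Collagens rose in both lines, by a far larger fold in BE2C, where their summed level started lower. Of 26 listed, 19 were tested, 18 rose in BE2C and 13 in Kelly, and the difference was positive at 15 and negative at 1. The median change was 3.18 in BE2C and 0.63 in Kelly. With no filter on low counts it was 1.83 and 0.73 over 25 genes. The summed level of the listed collagens went from 126–134.7 to 604–626 CPM in BE2C. In Kelly it went from 557–588 to 660–681 CPM, so BE2C with shAhR-2 came near the Kelly level. COL27A1, a fibrillar collagen, was at 0.898, 0.584 and 1.01 CPM and then 98.7, 91.7 and 86.4 in BE2C, and at 1.81, 2.15 and 1.03 and then 5.93, 7.26 and 6.36 in Kelly. The rise in BE2C was 6.79 ± 0.13 and in Kelly 1.95 ± 0.14, with a difference of 4.84 ± 0.24 (adjusted p = 5.50e-19). COL6A3, a microfibrillar collagen, rose by 4.83 ± 0.067 and 0.63 ± 0.053. COL4A1, of basement membranes, rose to a similar degree (0.44 ± 0.090 and 0.19 ± 0.077).

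Receptors and partners of the matrix went the same way. Of 26 integrin and laminin genes tested, 19 rose in BE2C and 15 in Kelly, and the difference was positive at 17 and negative at 4. ITGA5, the fibronectin receptor subunit, rose by 4.06 ± 0.26 and 1.61 ± 0.14, and LAMA5 by 2.45 ± 0.058 and 0.17 ± 0.042. ITGA6, a laminin receptor subunit, rose further in Kelly (0.47 ± 0.052 against 1.45 ± 0.054). ITGB5 rose alike (1.23 ± 0.039 and 0.89 ± 0.040) and LAMC1 fell alike (−1.07 ± 0.037 and −1.22 ± 0.039). Of 18 smooth muscle contractile genes tested, 13 differences were positive and 1 negative. CNN1, an actin-binding calponin, was at 0.499, 0.292 and 0.759 CPM and then 22.1, 23.03 and 22.7 in BE2C, and at 3.55, 3.03 and 2.71 and then 3.78, 4.16 and 3.75 in Kelly, a difference of 5.13 ± 0.23 (adjusted p = 4.24e-20). Its Kelly rise was small, and the related CNN2 rose in both (1.19 ± 0.061 and 1.54 ± 0.072).

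The TGF-beta pathway held a ligand and a receptor that moved together within each line and in opposite directions between the lines. Of 26 listed genes, 25 were tested, and the difference was positive at 18 and negative at 3. The ligand TGFB1 (chromosome 19, 41301587–41353911, minus strand) was at 5.81, 6.01 and 6.85 CPM in the BE2C controls and 33.9, 35.2 and 32.4 with shAhR-2, and at 72.2, 60.3 and 68.1 and 27.6, 28.8 and 27.4 in Kelly. It rose in all 3 BE2C libraries and fell in all 3 Kelly libraries. The change was 2.44 ± 0.077 and −1.26 ± 0.062, a difference of 3.699 ± 0.10 (adjusted p = 7.35e-27). The receptor TGFBR2 was at 4.94, 5.501 and 5.97 CPM and then 18.9, 18.1 and 17.5 in BE2C, and at 2.95, 2.05 and 1.497 and then 0.952, 0.648 and 0.6899 in Kelly. It followed the ligand, with a difference of 3.26 ± 0.25. The inhibitor SMAD7 rose in both lines to a similar degree (1.92 ± 0.063 and 1.55 ± 0.078). The differentiation inhibitor ID1 fell in BE2C and rose in Kelly (−0.42 ± 0.052 and 0.76 ± 0.069), and ID2 rose further in Kelly (0.12 ± 0.033 against 0.98 ± 0.033).

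Markers of other cells overlap these groups in part, since the fibroblast list itself holds collagen genes such as COL1A1, COL3A1 and COL6A3. The summed level of 15 fibroblast markers was 231 to 238 CPM in the BE2C controls and 593 to 612 with shAhR-2, and in Kelly 447 to 479 and 465 to 478. Of the 12 tested, 10 rose in BE2C and 3 in Kelly, and the difference was positive at 11 and negative at 0. COL6A3 went from a mean of 4.65 to 132 CPM in BE2C, while LUM went down from 50.7 to 36.9. THY1 rose in both lines (0.74 ± 0.044 and 0.36 ± 0.053). The defining fibroblast genes did not all appear: COL1A2 had no count in the shAhR-2 libraries of either line, FAP none in the BE2C controls or in Kelly, and POSTN none in Kelly. The summed level of 12 Schwann cell and glial markers went from 22.9–26.8 to 84.6–89.1 CPM in BE2C and from 35.9–38.7 to 78.2–84.3 in Kelly, with CDH19 at no count in all 12 libraries. Of the 10 tested, 7 rose in BE2C and 5 in Kelly. PMP22, a myelin protein, made up most of the sum, with a mean of 21.2 and then 62.6 CPM in BE2C and of 27.97 and then 66.1 in Kelly, and it rose in both (1.57 ± 0.058 and 1.24 ± 0.056). SOX10, FABP7 and FOXD3 had a mean below 0.5 CPM in every group. Endothelial markers summed to at most 15.01 CPM. The part of such cells in the results was not tested, and in bulk libraries more cells of a type and more RNA per cell cannot be told apart.

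Sympathetic identity genes changed unevenly. All 19 adrenergic core regulators were tested and expressed in both lines, 11 fell in BE2C and 10 in Kelly, and the difference was positive at 5 and negative at 11. HAND2, a sympathetic transcription factor (chromosome 4, 173524969–173530229, minus strand), was at 534, 519 and 523 CPM in the BE2C controls and 113, 117 and 116 with shAhR-2, and at 735, 716 and 728 and 279, 286 and 273 in Kelly. It fell in both lines and further in BE2C, with a difference of −0.81 ± 0.040 (adjusted p = 5.09e-19), and 24.1% of its exonic bases overlap HAND2-AS1 on the opposite strand. SIX3 fell in BE2C and rose in Kelly (−0.404 ± 0.056 and 0.54 ± 0.063) and KLF7 the reverse (0.27 ± 0.033 and −0.64 ± 0.034). GATA3 fell a little in both (−0.098 ± 0.035 and −0.25 ± 0.034), and EYA1 fell further in Kelly (−0.29 ± 0.043 against −1.12 ± 0.042). HAND1 and MEIS1 rose in both to a similar degree (1.06 ± 0.027 and 1.26 ± 0.028, 0.63 ± 0.054 and 1.04 ± 0.050). Their differences of −0.21 ± 0.039 and −0.41 ± 0.073 also passed the test.

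The enzymes and granule proteins of catecholamine cells split by step. Of 21 listed genes, 20 were tested, and the difference was positive at 7 and negative at 9, which became 8 and 8 without mitochondrial genes in the library sizes. DBH, which turns dopamine into noradrenaline, was at 552, 528 and 500.1 CPM and then 168, 182 and 187 in BE2C, and at 1376, 1291 and 1345 and then 408, 416 and 415 in Kelly. It fell alike in the lines, with a difference of 0.04 to 0.24 as a 95% interval, and so did the granule protein CHGA (−1.11 ± 0.031 and −1.248 ± 0.031). TH, the first enzyme, fell further in Kelly (−0.58 ± 0.041 against −1.28 ± 0.038), whereas DDC, the next enzyme, rose in BE2C and fell in Kelly (0.301 ± 0.028 and −0.63 ± 0.028). SCG2, a granin, was at 493, 478 and 488 CPM and then 994, 1029.9 and 1071 in BE2C, and at 42.5, 39.6 and 42.2 and then 481, 471 and 468 in Kelly. It rose in both and further in Kelly, with a difference of −2.43 ± 0.045 (adjusted p = 2.86e-31). The neuropeptide precursor VGF fell in BE2C and rose in Kelly (−0.57 ± 0.046 and 0.9996 ± 0.065).

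Genes of neuronal differentiation and axon growth rose in both lines at 13 of 30 members, and most members differed in the size of their change. All 30 listed were tested, 14 rose in BE2C and 18 in Kelly, 13 of them in both, and 9 fell in both, and the difference was positive at 10 and negative at 16. RET, the receptor of GDNF family ligands, was at 284, 255 and 282 CPM and then 1207, 1203 and 1194 in BE2C, and at 97.4, 106 and 96.2 and then 366, 369.6 and 357 in Kelly. It rose to a similar degree (2.13 ± 0.035 and 1.87 ± 0.036), with wide gaps between control and shAhR-2 libraries. DCX, a microtubule protein of young neurons, was at 82.1, 78.5 and 77.4 CPM and then 506, 507 and 508 in BE2C, and at 69.8, 69.01 and 72.4 and then 152, 156 and 146 in Kelly. It rose in both and further in BE2C (2.68 ± 0.034 against 1.104 ± 0.034, difference 1.57 ± 0.048, adjusted p = 3.50e-25). NEFM, a neurofilament subunit, was at 512, 502 and 515 CPM and then 218, 203 and 205 in BE2C, and at 109, 107 and 114 and then 222, 217 and 218 in Kelly. It fell in BE2C and rose in Kelly to nearly the same final level (difference −2.28 ± 0.046, adjusted p = 2.14e-30), and 38.9% of its exonic bases overlap AF106564.1 on the opposite strand. STMN2, a growth cone protein, followed it (−0.98 ± 0.034 and 0.37 ± 0.033), and its relative STMN4 rose alike in both (1.51 ± 0.15 and 1.596 ± 0.089).

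Of 34 synapse genes tested, the difference was positive at 9 and negative at 17. RAB3A, a GTPase of vesicle release, was at 21.9, 20.3 and 20.7 CPM and then 30.05, 33.1 and 33.5 in BE2C, and at 14.4, 13.3 and 16.99 and then 117, 116 and 117 in Kelly. Its rise was far larger in Kelly (difference −2.35 ± 0.088, adjusted p = 1.77e-22). NLGN3, an adhesion protein, rose further in BE2C (3.45 ± 0.22 against 0.65 ± 0.12). CPLX1, a fusion clamp, fell further in BE2C (−1.83 ± 0.055 against −0.59 ± 0.057). SYN1 and SV2C, proteins of the vesicle surface, fell to a similar degree (−1.81 ± 0.092 and −1.76 ± 0.091, −1.73 ± 0.18 and −1.76 ± 0.11).

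Of 45 axon guidance genes tested, the difference was positive at 19 and negative at 10. NRP2, a semaphorin coreceptor, was at 49.8, 47.5 and 48.6 CPM and then 304, 305 and 295 in BE2C, and at 83.9, 76.01 and 81.5 and then 101, 98.98 and 100.4 in Kelly. Its rise was 2.63 ± 0.038 in BE2C and 0.31 ± 0.037 in Kelly. EFNB3 also rose further in BE2C (3.33 ± 0.10 against 1.202 ± 0.064). UNC5A, a netrin receptor, rose alike (1.71 ± 0.068 and 1.54 ± 0.056) and the ephrin EFNB2 fell alike (−1.68 ± 0.10 and −1.497 ± 0.11), with 26.2% of EFNB2 exonic bases overlapping AL138689.2 on the opposite strand.

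In the retinoic acid pathway, which drives neuroblastoma cells to differentiate, 16 of 18 listed genes were tested, and the difference was positive at 8 and negative at 1. CRABP2, which carries retinoic acid to its nuclear receptor (chromosome 1, 156699606–156705816, minus strand), was at 6.78, 6.16 and 6.04 CPM in the BE2C controls and 680.3, 636 and 635 with shAhR-2, and at 13.6, 12.7 and 14.4 and 93.3, 90.9 and 91.4 in Kelly. It rose steeply in both lines from low control levels. The rise was 6.68 ± 0.050 in BE2C and 2.76 ± 0.045 in Kelly, and the difference was 3.92 ± 0.073 (adjusted p = 2.86e-31). RDH10, which oxidizes retinol, fell further in BE2C (−2.06 ± 0.088 against −0.57 ± 0.10). STRA6 fell and RXRB rose slightly and alike in both lines (−0.21 ± 0.047 and −0.22 ± 0.049, 0.34 ± 0.088 and 0.27 ± 0.083).

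Genes that p53 is known to activate also parted between the lines. All 24 listed were tested, 13 rose in BE2C and 8 in Kelly, and the difference was positive at 11 and negative at 5. CDKN1A, the cell cycle inhibitor p21 (chromosome 6, 36676460–36687339, plus strand), was at 4.04, 3.89 and 4.02 CPM in the BE2C controls and 14.5, 13.4 and 12.2 with shAhR-2, and at 51.8, 51.3 and 47.4 and 16.9, 16.6 and 17.8 in Kelly. It rose in every BE2C library and fell in every Kelly library to a level near that of BE2C with shAhR-2. The difference was 3.296 ± 0.11 (adjusted p = 1.19e-23). PLK2, a stress-induced kinase, did the same (2.77 ± 0.077 and −0.92 ± 0.071). PLK3 and BBC3, the latter a trigger of cell death, rose to a similar degree in both (1.33 ± 0.14 and 1.253 ± 0.13, 1.23 ± 0.17 and 1.19 ± 0.11). ZMAT3 fell in BE2C (−1.15 ± 0.066, Kelly −0.09 ± 0.053), and CCNG1 rose in Kelly (0.46 ± 0.035, BE2C −0.07 ± 0.036).

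All 15 genes of small RNA processing were tested. DROSHA, which cuts primary microRNA transcripts, was at 189, 199 and 191 CPM and then 50.7, 48.9 and 45.9 in BE2C, and at 189.6, 184 and 185 and then 43.7, 45.1 and 41.3 in Kelly. It fell in both lines to a similar degree (−1.99 ± 0.040 and −2.102 ± 0.040, interval of the difference −0.01 to 0.22). Its partner DGCR8 rose in BE2C and fell slightly in Kelly (0.88 ± 0.041 and −0.19 ± 0.040). XPO5, which exports the precursors, did the reverse, with −0.66 ± 0.031 in BE2C and 0.52 ± 0.030 in Kelly. AGO4 rose in both and further in BE2C (1.67 ± 0.058 against 0.72 ± 0.053), TNRC6C rose further in Kelly (0.25 ± 0.044 against 0.84 ± 0.044), and TNRC6A rose alike (0.93 ± 0.041 and 1.32 ± 0.041).

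**Figure D4:**
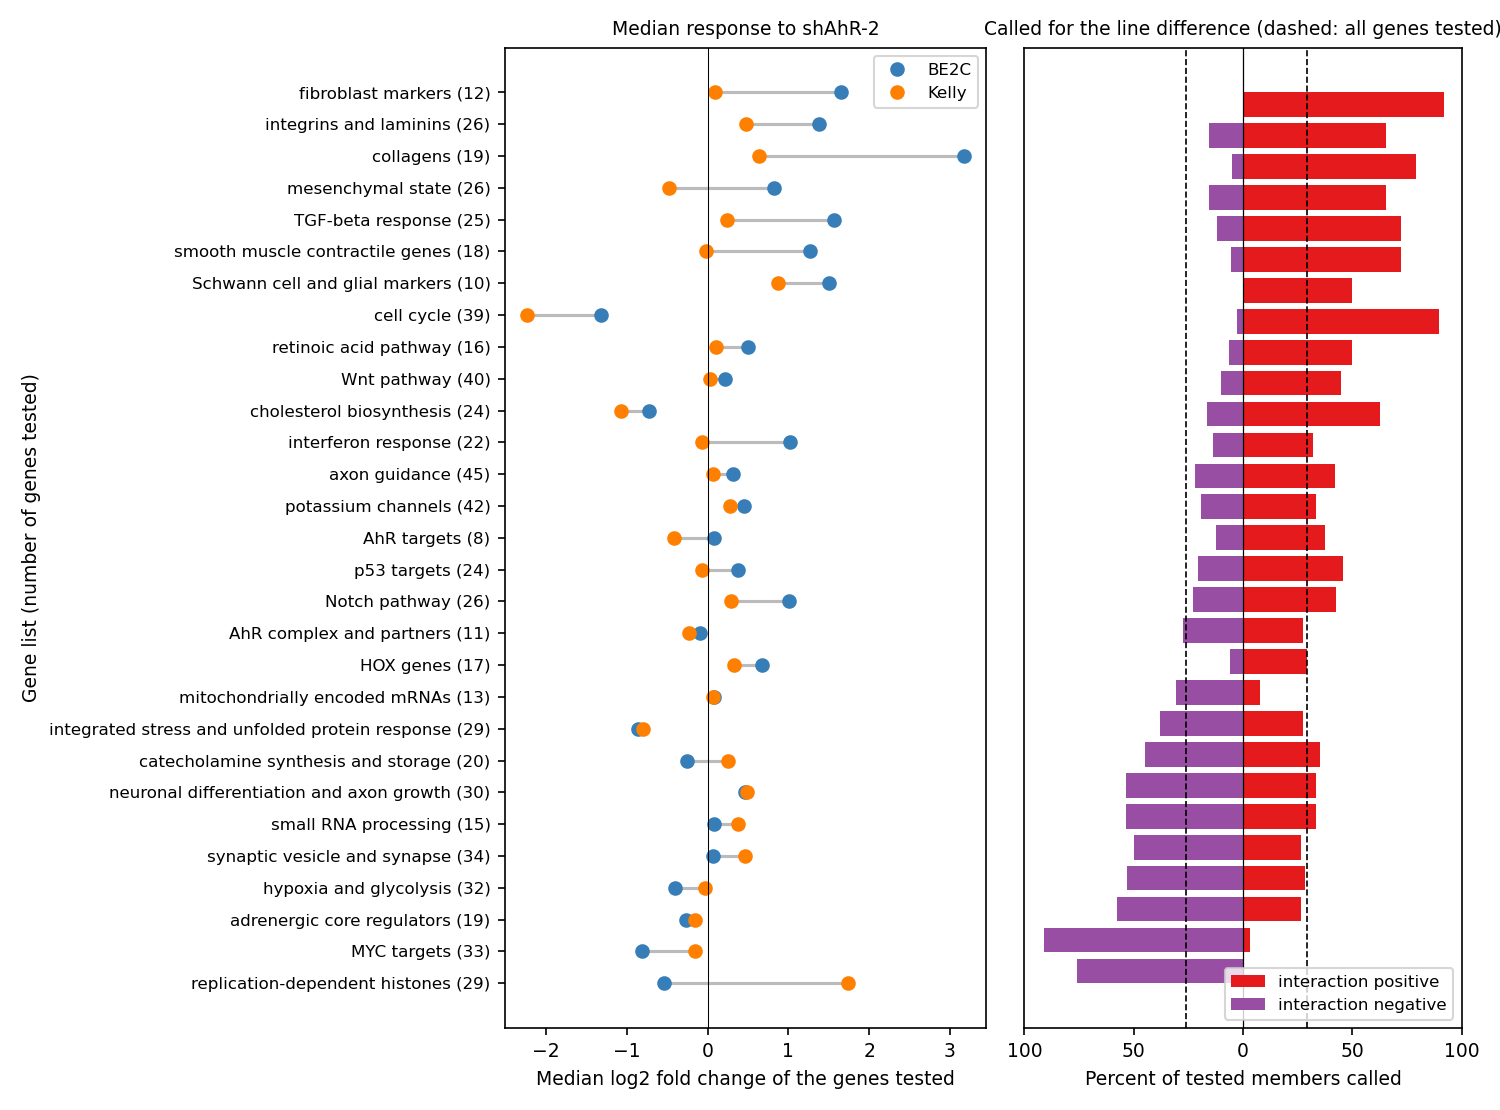
Left, the median log2 change with shAhR-2 of the tested members of 29 lists in BE2C (blue) and Kelly (orange). Right, the percent of those members with a positive (red) or negative (purple) difference that passed the test, with dashed lines at 29.3% and 26.3% for all genes tested. Fibroblast markers, collagens and cell cycle genes had mostly positive differences, and MYC targets and histones mostly negative ones.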

How the data were processed

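The authors deposited raw read counts in a separate table for each line. Per the labels' protocols, RNA was isolated with miRNeasy columns and depleted of ribosomal RNA with RiboErase before library preparation. The submitters' processing notes name CASAVA 1.8.2, STAR 2.7.9a and GRCh38.p7. How reads were counted, and whether by strand, is not stated in any source used here, so reads of overlapping genes cannot be told apart. Of counts from 1 to 20, 68.3% to 72.5% were even in each library. Halving all counts was therefore tried.

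The 12 libraries were fitted together in edgeR 4.0.16 (R 4.3.3) with 1 mean per group, filterByExpr, TMM normalization, glmQLFit and glmQLFTest. A call needed an adjusted p (Benjamini-Hochberg over 16745 genes) below 0.05. The interaction is the shAhR-2 change in BE2C less that in Kelly. Each SE is the log2 fold change divided by the root of F. Members and lists (31, with 805 genes) were chosen with earlier results of these data known. Genes named without a remark were picked by a fixed rule. It takes AHR, ARNT, AHRR, CYP1A1, CYP1B1, TIPARP, NQO1, MYCN, HAND2 and GATA3 in any case. It adds the 6 genes with the largest difference in each line-specific or opposite class, the 6 risers and 6 fallers with the largest shared change, and up to 2 of each kind per list. These needed 1 CPM in both lines, a mean of 5 CPM and libraries that did not overlap where a call was needed. Some genes that the rule picks are not reported here. Locations are from GENCODE release 29.

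Alternatives were a replicate block, each library left out, RLE size factors, no filter, a floor of 1 on the mean CPM, DESeq2 1.42.0, limma-voom (limma 3.58.1), halved counts, mitochondrial genes left out and each line fitted alone. In data simulated for the interaction on 16745 genes, true differences were placed in few genes, each with a mean of at least 1 CPM. Of these, 54% were recovered at 1.25-fold, 74% at 1.5-fold, 88% at 2-fold and 98% at 4-fold, and 9 of 166 calls were false. In the data themselves 55.6% of genes were called, so these rates may not carry over to them or to genes with low counts.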

Additional observations from a re-analysis of the deposited data

Results flagged for a closer look

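The change with shAhR-2 was tested for a difference between BE2C and Kelly, and 9305 genes passed. Every difference given above with its test is of this kind. The values below belong to the genes with the largest opposite changes among those that met the limits of the naming rule. With a rise in BE2C and a fall in Kelly, the log2 difference was 6.30 for CCDC80, 4.74 for COL1A1, 4.72 for NEDD9, 4.50 for MDFI, 4.34 for TNS3 and 4.16 for SLITRK6. With a fall in BE2C and a rise in Kelly, it was −3.76 for CNGB1, −2.97 for SLIT1, −2.76 for HSD11B2, −2.75 for SEMA3D, −2.56 for TPBGL and −2.52 for GCAT. The naming rule required shAhR-2 libraries beyond all controls in both lines, so the separation of these genes adds no support. The groups held 3 libraries each, too few for a search for single outlying samples by gap and range.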

How the results depend on the processing

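None of the 9305 called differences turned its sign and stayed called under any alternative. Leaving out 1 library at a time, 94.0% to 95.3% of them were called again with the same sign, and positive differences numbered 4602 to 4815 and negative ones 4269 to 4379. The numbers of opposite responses were then 637 to 693 (BE2C up) and 805 to 848 (BE2C down). No count of calls over all genes that was recomputed under the alternatives moved by over 1.5 times. The counts of genes at least 2-fold in both lines, and those limited by expression in each line, were not recomputed. Replicate numbers did not pair the libraries (correlations of −0.0114 to 0.0164 between same-numbered libraries), and with a replicate block 9097 of the differences were called again. DESeq2 called 9188 again, limma-voom 9014, halved counts 9027, the fit without a filter 8562 and a mean CPM of at least 1 8420. Leaving mitochondrial genes out of the fit called 8538 again and moved the median difference over all genes from 0.05 to 0.13, and the positive share of calls from 52.7% to 60.8%. Without a filter that share was 46.1% (median −0.03), and with a mean CPM of at least 1 it was 47.0% (median −0.03). The HSP90AA1 difference, −0.01 and not called in the main fit, was 0.0766 and called without mitochondrial genes. With no filter it was −0.09 and called. Of 158 named genes called for the difference, 19 lost the call in at least 1 of 20 settings, mostly genes with a difference below 0.3. Without the first BE2C shAhR-2 library, calls among the 13 mitochondrial mRNAs went from 4 to 10 negative. The depth does not resolve AHR, whose groups held 0 to 59 counts.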

Other observations

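Signalling and channel genes outside the groups above differed between the lines at a share of members near that of all genes tested, where 55.6% were called for the difference. The share was 65.4% for Notch, 55.0% for Wnt and 52.4% for potassium channel genes. Of 26 Notch pathway genes tested, 11 differences were positive and 6 negative. The ligand DLL3 was at 21.9, 23.9 and 22.003 CPM and then 11.7, 13.2 and 12.7 in BE2C, and at 33.03, 30.7 and 28.4 and then 60.8, 60.4 and 61.6 in Kelly, a fall and a rise without overlap (difference −1.84 ± 0.090, edgeR quasi-likelihood test, adjusted p = 3.30e-19). The Notch ubiquitin ligase DTX1 rose further in BE2C (2.797 ± 0.11 against 0.57 ± 0.067) and DTX4 further in Kelly (1.02 ± 0.16 against 2.23 ± 0.26). The coactivator MAML3 rose and MAML1 fell to a similar degree in both. Of 40 Wnt pathway genes tested, 18 differences were positive and 4 negative. NKD1, a feedback inhibitor of the pathway, was at 0.648, 0.706 and 0.556 CPM and then 4.8996, 5.84 and 4.34 in BE2C, and at 16.2, 16.1 and 15.8 and then 20.4, 15.9 and 18.3 in Kelly, where the groups overlapped (difference 2.79 ± 0.21, adjusted p = 3.68e-14). The coreceptor LRP5 fell alike (−1.61 ± 0.055 and −1.82 ± 0.057). Of 42 potassium channel genes tested, 14 differences were positive and 8 negative. KCNMA1, a calcium-activated channel, rose in BE2C and fell in Kelly (0.56 ± 0.071 and −0.75 ± 0.086), and KCNC4 rose further in BE2C (2.79 ± 0.10 against 0.99 ± 0.065).

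Of 22 interferon response genes tested, 7 differences were positive and 3 negative. STAT2, a carrier of the interferon signal, rose in BE2C (1.395 ± 0.069) and had a Kelly value of 0.12 ± 0.064 with overlapping groups. Of 17 HOX genes tested, 5 differences were positive and 1 negative. HOXD8 rose in BE2C (1.14 ± 0.12, Kelly 0.12 ± 0.11), and HOXC4, which shares 17.8% of its exonic bases with HOXC6, fell in BE2C and rose in Kelly (−0.28 ± 0.046 and 0.33 ± 0.043). All 13 mitochondrially encoded mRNAs were tested, with 1 difference positive and 4 negative. MT-ND1, a subunit of complex I, rose in both lines to a similar degree (0.46 ± 0.053 and 0.79 ± 0.053), and these counts rest in part on the BE2C library with the highest mitochondrial share.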
